A study of Mus musculus with 14 samples.

Results

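Polyamines are made and broken down by a short chain of enzymes, and 5 mouse genes of that chain, Odc1, Srm, Sms, Azin1 and Sat1, are described here across 7 culture conditions of 1 pre-B cell line. The genes were chosen by name from the annotation of the array, and each was read through its brightest probe set that carries a single gene symbol. That rule gave a value for 4 of the 5 genes, of 19938 genes measured in all. Sms, the spermine synthase gene, was not analysed here, because both of its probe sets are also annotated to Gm8234. The gene set was put together with the fall of Srm after 6 h without IL-7 already known, so every Srm value that involves the 6 h arrays is given as a description and without a p-value. The other genes and the gene lists were also chosen with earlier results of these data known. Their p-values, and those of Srm at 24 h, do not allow for that choice.

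The cells were BH1-Bcl2-Ik1ER, an Ikaros-deficient mouse pre-B line to which retroviruses had added Bcl2, a survival factor, and a fusion of Ikaros with the estrogen receptor. All 7 groups carry both transgenes, and cells without the fusion were not part of the series, so an effect of 4-hydroxytamoxifen (4OHT) on other targets cannot be told apart from one of the fusion. The ligand 4OHT, used at 100 nM, switches the fusion on, and IL-7, the growth factor of early B cells, came from medium conditioned by an IL-7-producing line at 8%. The groups were cells at time 0, cells after 6 h without IL-7 and with 4OHT, cells after 6 h with IL-7 and with 4OHT, and after 24 h the 4 combinations: without IL-7 and with 4OHT, without either, with both, and with IL-7 and no 4OHT. The cells at time 0 were in the 8% medium with IL-7, and no 4OHT dose is given for them. Groups without IL-7 had 0% of the conditioned medium, so loss of IL-7 cannot be told apart from loss of anything else in it. Below, IL-7 withdrawal means removal of that medium. Each group had 2 arrays, 1 from each of 2 independent experiments, called experiment 1 and experiment 2 here. At 6 h every array had 4OHT, so 4OHT was not separated from 6 h of culture.

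Ornithine decarboxylase, encoded by Odc1, makes putrescine from ornithine and is the regulated entry step of the pathway. Srm, spermidine synthase, adds an aminopropyl group to putrescine to give spermidine, and Sms does the same to spermidine to give spermine. Azin1 resembles ornithine decarboxylase without its activity and binds antizyme, the protein that otherwise leads ornithine decarboxylase to the proteasome. Sat1 works in the other direction: it acetylates spermidine and spermine, which marks them for export or oxidation. Odc1 is a textbook target of the transcription factor MYC, and growing lymphoid cells hold high polyamine levels.

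In the GRCm38.p6 annotation of RefSeq, Srm lies at chr4:148591513-148594619, Odc1 at chr12:17544808-17551502, Azin1 at chr15:38487430-38519294 and Sat1 at chrX:155213126-155216449. The promoter table used here held windows for Odc1 and Sat1 among the measured genes, and for Sms, and the bases upstream of the Odc1 and Sat1 starts are shown because these genes moved in opposite directions below. They come from RefSeq (GRCm38.p6), on the plus strand at chr12:17544623-17544807 for Odc1 and on the minus strand at chrX:155216450-155216699 for Sat1.
Odc1: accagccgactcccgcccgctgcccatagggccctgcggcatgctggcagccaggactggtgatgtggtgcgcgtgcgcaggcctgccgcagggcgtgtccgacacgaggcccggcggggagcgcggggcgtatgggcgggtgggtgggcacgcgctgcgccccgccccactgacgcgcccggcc
Sat1: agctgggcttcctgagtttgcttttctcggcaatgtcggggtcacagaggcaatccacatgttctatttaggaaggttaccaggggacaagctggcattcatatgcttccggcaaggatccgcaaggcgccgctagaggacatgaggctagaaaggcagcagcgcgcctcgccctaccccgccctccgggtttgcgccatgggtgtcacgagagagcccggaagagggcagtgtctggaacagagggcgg
G and C made up 77.8% of the 185 Odc1 bases and 59.6% of the 250 Sat1 bases. The Odc1 window that was searched, chr12:17544623-17544872, runs on into the annotated gene span, and the bases shown are its stretch outside that span. In the 250 bases upstream of a start, on both strands, 3 motifs were searched: CACGTG, the E-box read by MYC with MAX, TTCNNNGAA, the core of STAT sites, and TGGGAA, the core of Ikaros sites. None of these letters occurred in the Odc1 or Sat1 window, where 6.02%, 7.02% and 21.6% of all 32851 windows held them, in that order, and nothing follows from this about binding elsewhere. Sms has 2 windows in the table, of which 1 holds CACGTG, beginning 196 bases before the start. No bases are in capitals because no motif matched in the windows shown.

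The arrays are compared on the deposited log2 scale, where a difference of 1 is a doubling. Over all probe sets, Pearson's r between both arrays of a group was 0.9933 to 0.9965. All 9 measured genes of a B lineage precursor list lay above the median of all values in every group, with array means of 12.06 to 12.41 on the log2 scale. The T cell, myeloid, erythroid and megakaryocyte, and stromal lists had array means of 6.05 to 7.23, below that median of 7.51. Of their single genes, 1 of 6 T cell genes (Lat) and 2 of 4 stromal genes (Col1a1 and Col1a2) lay above the median in every group, and 0 of 6 myeloid and 0 of 2 measured erythroid and megakaryocyte genes did. RNA came from whole cultures, so fewer expressing cells and less RNA per cell cannot be told apart. Each difference below is given ± SE from limma, fitted over all 14 arrays and 19938 genes, with Benjamini-Hochberg adjustment over all genes and a threshold of 0.05. Where the fit with the experiment as a replicate block changed a call, its adjusted p stands beside the first one. All shares of all genes come from the fit without the block. More genes passed with the block in every comparison, so these shares are no reference for counts with the block.

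**Figure D1:**
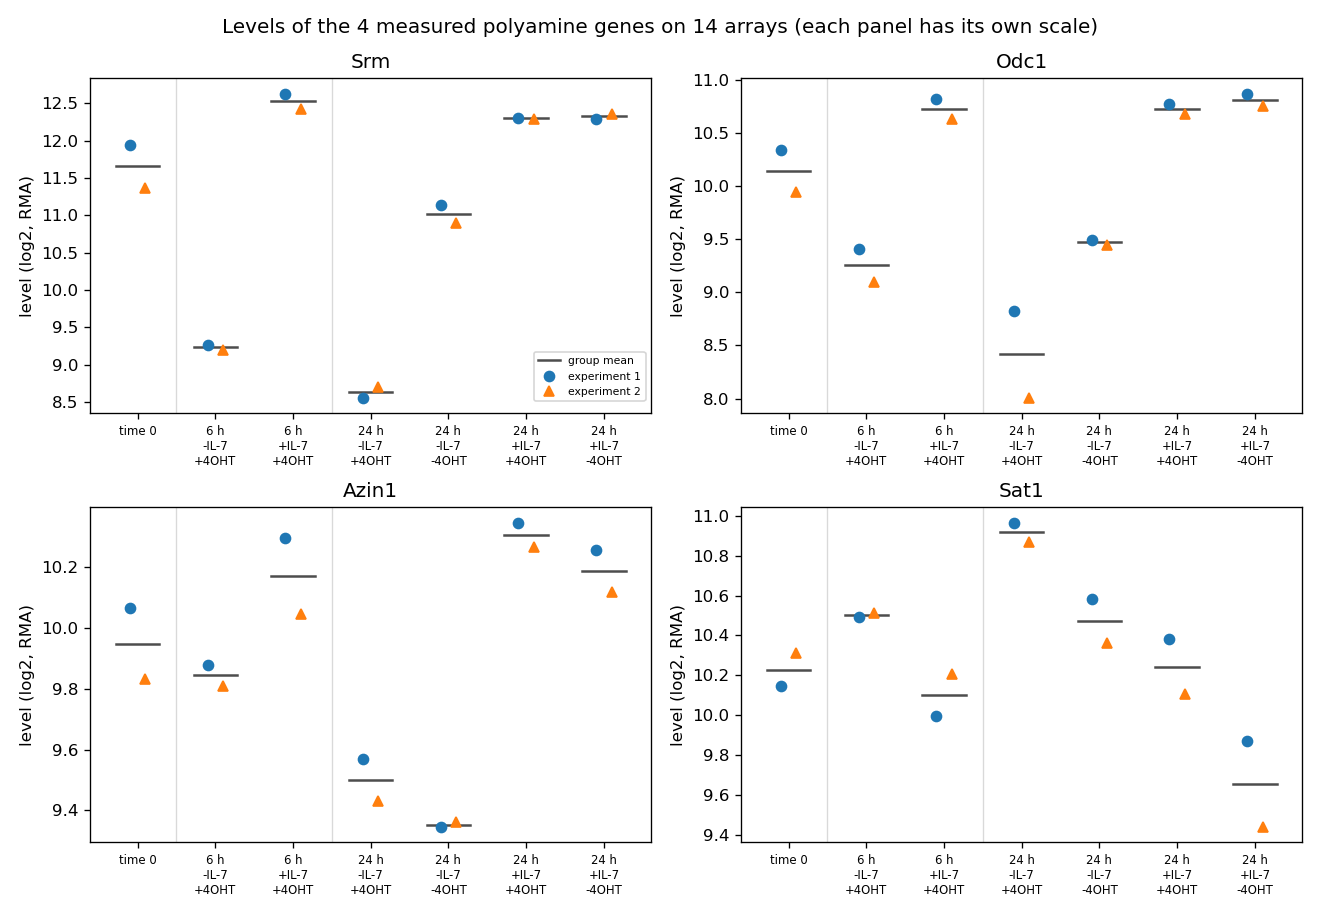
Level (log2, RMA) of each measured gene on each of the 14 arrays, with circles for experiment 1, triangles for experiment 2 and a bar for the group mean. Srm and Odc1 were lowest after 24 h without IL-7 and with 4OHT, Azin1 was lowest after 24 h without either, and Sat1 was highest after 24 h without IL-7 and with 4OHT. Each panel has its own vertical scale.

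Odc1, the entry step, was higher in every group cultured for 6 h or 24 h with IL-7 than in every group cultured without it. The cells at time 0, also with IL-7, lay between them. At time 0 it was at 10.34 and 9.94 on the log2 scale in experiments 1 and 2. After 6 h under 4OHT it was at 9.41 and 9.10 without IL-7, against 10.82 and 10.63 with IL-7. These 4 arrays do not overlap, and both time 0 arrays lie between them. After 24 h it was at 8.83 and 8.00 without IL-7 and with 4OHT, against 9.49 and 9.44 without either. The arrays with IL-7 at 24 h stood at 10.77 and 10.67 with 4OHT, against 10.87 and 10.75 without it. The group without IL-7 and with 4OHT at 24 h was the lowest of the 7 at 8.41 ± 0.58 (SD, n = 2), and its 2 arrays lay further apart than those of any other group for this gene. The 3 groups cultured for 6 h or 24 h with IL-7 lay at 10.72 to 10.81 and their neighbours in that order overlap. A second Odc1 probe set, dimmer at 9.79 against 9.93 on average, gave a difference of -1.36 for IL-7 withdrawal at 6 h and of -1.14 at 24 h without 4OHT, where the probe set used gave -1.47 and -1.34.

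Srm, the spermidine synthase gene, covered the widest range of the 4 genes, with group means that spanned 3.90. At time 0 it was at 11.95 and 11.37, which differ by more than the 2 arrays of any other group for this gene. After 6 h under 4OHT it was at 9.27 and 9.20 without IL-7, against 12.63 and 12.42 with IL-7. No array of one group came near the other. After 24 h it was at 8.55 and 8.71 without IL-7 and with 4OHT, against 11.14 and 10.90 without either. With IL-7 at 24 h the arrays stood at 12.31 and 12.30 with 4OHT, against 12.30 and 12.36 without it. The means fell into the order 12.53 ± 0.15 after 6 h with IL-7 and 4OHT, 12.33 ± 0.04 after 24 h with IL-7 alone, 12.30 ± 0.01 after 24 h with both, 11.66 ± 0.41 at time 0, 11.02 ± 0.17 after 24 h without either, 9.23 ± 0.05 after 6 h without IL-7 and 8.63 ± 0.11 after 24 h without IL-7 and with 4OHT (SD, n = 2 each). Of these neighbours only the pair cultured with IL-7 for 24 h overlapped.

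Azin1, the antizyme inhibitor, moved over the narrowest range, with group means that spanned 0.95. It was at 10.06 and 9.83 at time 0. After 6 h under 4OHT it was at 9.88 and 9.81 without IL-7, against 10.29 and 10.05 with IL-7. The 6 h groups do not overlap, but time 0 overlaps both of them. After 24 h it was at 9.57 and 9.43 without IL-7 and with 4OHT, against 9.35 and 9.36 without either. With IL-7 at 24 h it was at 10.34 and 10.26 with 4OHT, against 10.26 and 10.12 without it. Unlike Odc1 and Srm, whose lowest group had 4OHT, Azin1 had its lowest mean, 9.35 ± 0.01 (SD, n = 2), in the cells without either for 24 h.

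Sat1, the acetyltransferase of polyamine breakdown, ran the other way. At time 0 it was at 10.14 and 10.31. After 6 h under 4OHT it was at 10.49 and 10.51 without IL-7, against 10.00 and 10.21 with IL-7. The arrays without IL-7 lay above those with IL-7 and above both time 0 arrays. After 24 h it was at 10.97 and 10.87 without IL-7 and with 4OHT, against 10.58 and 10.36 without either. With IL-7 at 24 h it was at 10.38 and 10.11 with 4OHT, against 9.87 and 9.44 without it. The group means spanned 1.26, with the cells that had IL-7 and no 4OHT for 24 h lowest at 9.66 ± 0.31 (SD, n = 2). The neighbours from second to sixth place in the order overlap, so only both ends stand apart.

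Removing IL-7 for 24 h lowered the 3 genes of synthesis and raised Sat1, with and without 4OHT. Under 4OHT, Odc1 fell by 2.31 ± 0.21 (adjusted p = 1.11e-05), Srm fell by 3.67 ± 0.15 (adjusted p = 6.31e-08) and Azin1 fell by 0.80 ± 0.10 (adjusted p = 0.00012). Sat1 rose by 0.67 ± 0.14 (adjusted p = 0.004). On a linear scale Srm was 12.7-fold lower and Odc1 4.95-fold lower. Of all genes, 11.5% were lower and 12.8% higher in this comparison, and the median gene differed by 0.06. Without 4OHT, Odc1 fell by 1.34 ± 0.21 (adjusted p = 0.000889), Srm fell by 1.31 ± 0.15 (adjusted p = 0.000106) and Azin1 fell by 0.83 ± 0.10 (adjusted p = 0.000146). Sat1 rose by 0.82 ± 0.14 (adjusted p = 0.00147). Here 8.78% of all genes were lower and 11.2% higher. Thus 3 of the 4 genes passed as lower and 1 as higher in each comparison, and each difference had the same sign in both experiments.

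At 6 h under 4OHT, IL-7 withdrawal left Srm lower by 9.80-fold, a log2 difference of -3.29 ± 0.15, which is the value that brought the gene into the set. Odc1 fell by 1.47 ± 0.21 (adjusted p = 0.000568), a 2.77-fold difference. Azin1 differed by -0.33 ± 0.10 (adjusted p = 0.0528, 0.00504 with the replicate block) and Sat1 by 0.40 ± 0.14 (adjusted p = 0.0867, 0.0403 with the replicate block). Both differences had the direction they had at 24 h. Over the 19 alternatives Azin1 lay between -0.45 and -0.20 (adjusted p = 0.00504 to 0.416) and Sat1 between 0.30 and 0.51 (adjusted p = 0.0377 to 0.438). Over all genes 7.48% passed as lower and 6.78% as higher. The effect of IL-7 withdrawal under 4OHT at 24 h minus that at 6 h was -0.84 ± 0.30 for Odc1 (adjusted p = 0.173, 0.0179 with the replicate block) and -0.48 ± 0.14 for Azin1 (adjusted p = 0.0918, 0.00915 with the replicate block). Over the alternatives it ran from -1.25 to -0.43 for Odc1 (adjusted p = 0.00563 to 0.462) and from -0.60 to -0.35 for Azin1 (adjusted p = 0.00915 to 0.311). It was 0.27 ± 0.20 for Sat1 (adjusted p = 0.609) and -0.38 ± 0.22 for Srm. In this limma test 0 of the 3 genes other than Srm passed, while 2 had an unadjusted p under 0.05, and 3.65% of all genes were lower and 1.36% higher.

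**Figure D2:**
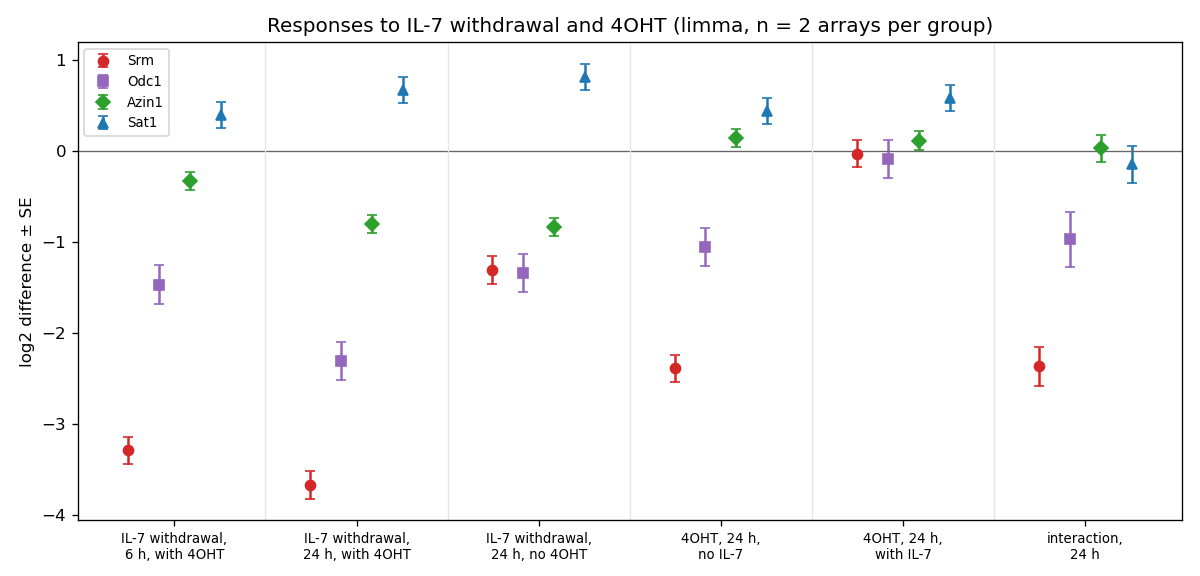
Log2 difference ± SE (limma) of each measured gene in 6 comparisons, each of groups with 2 arrays; points below 0 are lower after IL-7 withdrawal or with 4OHT, and the interaction is the difference between both 24 h withdrawal effects. Srm and Odc1 lie near 0 for 4OHT with IL-7, at -0.03 and -0.09, and far below it for 4OHT without IL-7, at -2.39 and -1.05.

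At 24 h, 4OHT lowered Srm and Odc1 in cells without IL-7, and neither passed in cells with IL-7. Without IL-7, cells with 4OHT had less Srm, which fell by 2.39 ± 0.15 (adjusted p = 6.75e-07), and less Odc1, which fell by 1.05 ± 0.21 (adjusted p = 0.00448). The Odc1 difference was -0.67 in experiment 1 and -1.44 in experiment 2. Azin1 differed by 0.15 ± 0.10 (adjusted p = 0.46), with a 95% interval of -0.07 to 0.37. Sat1 differed by 0.44 ± 0.14 (adjusted p = 0.0546, 0.0235 with the replicate block). Over all genes 8.17% were lower and 7.10% higher. With IL-7 present, Srm differed by -0.03 ± 0.15 (adjusted p = 0.94), and its 95% interval of -0.36 to 0.31 leaves out a change of the size seen without IL-7. For Odc1 the difference was -0.09 ± 0.21 (adjusted p = 0.85) with an interval of -0.55 to 0.38, and for Azin1 it was 0.12 ± 0.10 (adjusted p = 0.522) with an interval of -0.10 to 0.34. Sat1 was the 1 gene of the 4 that passed with IL-7 present: it rose by 0.59 ± 0.14 (adjusted p = 0.0204), where 5.22% of all genes were higher and 3.94% lower. That call rests on both experiments, since without the experiment 1 array of the cells with IL-7 and 4OHT the difference was 0.45 (adjusted p = 0.23), and without the experiment 2 array of the cells with IL-7 and no 4OHT it was 0.37 (adjusted p = 0.213).

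The test of the difference itself, the interaction of IL-7 withdrawal and 4OHT at 24 h, passed for 1 of the 4 genes, Srm. Its fall after IL-7 withdrawal was larger under 4OHT by 2.37 ± 0.22 (log2 interaction of -2.37, adjusted p = 0.000581), and the interaction was -2.60 in experiment 1 and -2.13 in experiment 2. For Odc1 the interaction was -0.97 ± 0.30 (adjusted p = 0.272, 0.0248 with the replicate block), and it was -0.57 in experiment 1 and -1.36 in experiment 2. Without the experiment 1 array of the cells that lacked IL-7 and had 4OHT it was -1.38 (adjusted p = 0.021), and without the experiment 2 array of the same group it was -0.56 (adjusted p = 0.54). Over the alternatives its adjusted p ran from 0.021 to 0.713. The interaction was 0.03 ± 0.14 for Azin1 (adjusted p = 0.976, 95% interval -0.28 to 0.34) and -0.15 ± 0.20 for Sat1 (adjusted p = 0.89). So few genes passed this test, 0.617% as lower and 0.0702% as higher, that Srm was 1 of 137 among 19938. That number was 449 with the replicate block and 50 without the experiment 2 array of the cells with IL-7 and no 4OHT. Cells without IL-7 and with 4OHT, set against cells with IL-7 and no 4OHT, had all 4 genes past the threshold: Odc1 fell by 2.39 ± 0.21 (adjusted p = 2.94e-06), Srm fell by 3.70 ± 0.15 (adjusted p = 1.36e-08), Azin1 fell by 0.69 ± 0.10 (adjusted p = 0.000173) and Sat1 rose by 1.26 ± 0.14 (adjusted p = 1.84e-05). In that comparison 15.4% of all genes were lower and 18.1% higher.

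Both 24 h groups without 4OHT were compared with time 0, and the comparisons with time 0 share those 2 arrays. For each gene the mean at time 0 lay between the means of these 24 h groups. Its differences from time 0 were therefore smaller than that of IL-7 withdrawal for 24 h without 4OHT, which follows from this order alone. The 24 h groups with 4OHT were not compared with time 0. Of these, the cells without IL-7 had means of 8.63 for Srm and 8.41 for Odc1, against 11.66 and 10.14 at time 0. After 24 h with IL-7 and no 4OHT, Srm rose by 0.67 ± 0.15 (adjusted p = 0.0389), although without the experiment 2 array of time 0 the difference was 0.38 (adjusted p = 0.291). Over the alternatives its adjusted p ran between 0.00553 and 0.291, always with a higher level after 24 h. Odc1 differed by 0.67 ± 0.21 (adjusted p = 0.121, 0.0117 with the replicate block), Azin1 by 0.24 ± 0.10 (adjusted p = 0.259) and Sat1 by -0.57 ± 0.14 (adjusted p = 0.0514, 0.0152 with the replicate block). Over all genes 0.737% were higher and 2.36% lower. After 24 h without IL-7 or 4OHT, Srm fell by 0.64 ± 0.15 (adjusted p = 0.0293) and Azin1 fell by 0.59 ± 0.10 (adjusted p = 0.00417). Without the experiment 1 array of time 0 these were -0.35 (adjusted p = 0.263) and -0.48 (adjusted p = 0.0634). The Srm difference was -0.76 (adjusted p = 0.0649) without the experiment 1 array of the 24 h cells and -0.52 (adjusted p = 0.268) without the experiment 2 array. Odc1 differed by -0.67 ± 0.21 (adjusted p = 0.104, 0.00741 with the replicate block) and Sat1 by 0.25 ± 0.14 (adjusted p = 0.461), with 4.09% of all genes lower and 1.42% higher.

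After 6 h with IL-7 and 4OHT, Srm was higher than at time 0 by 0.86 ± 0.15. Odc1 differed by 0.58 ± 0.21 (adjusted p = 0.138, 0.0137 with the replicate block), Azin1 by 0.22 ± 0.10 (adjusted p = 0.267) and Sat1 by -0.12 ± 0.14 (adjusted p = 0.789). Of all genes 3.92% were higher and 4.85% lower. After 6 h without IL-7 and with 4OHT, Odc1 fell by 0.89 ± 0.21 (adjusted p = 0.0154). Without the experiment 1 array of time 0 that difference was -0.69 (adjusted p = 0.157), and without the experiment 2 array of the 6 h cells it was -0.73 (adjusted p = 0.129). Srm was lower by a log2 difference of -2.43 ± 0.15, whereas Azin1 differed by -0.10 ± 0.10 (adjusted p = 0.689) and Sat1 by 0.28 ± 0.14 (adjusted p = 0.285). In that comparison 7.53% of all genes were lower and 5.57% higher.

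Odc1 and Azin1 were lower after 24 h than after 6 h of 4OHT in cells without IL-7. Odc1 fell by 0.84 ± 0.21 (adjusted p = 0.0233), Azin1 fell by 0.34 ± 0.10 (adjusted p = 0.0477), and Srm differed by -0.60 ± 0.15. Sat1 differed by 0.41 ± 0.14 (adjusted p = 0.0877, 0.04 with the replicate block). Of all genes 6.81% were lower and 5.11% higher. Both calls depend on single arrays. Odc1 differed by -0.43 (adjusted p = 0.161) without the experiment 2 array of the 24 h cells and by -0.68 (adjusted p = 0.179) without the experiment 1 array of the 6 h cells. Azin1 kept its direction, with adjusted p-values of 0.00434 to 0.241 over the alternatives. In cells with IL-7 the differences between 24 h and 6 h were 0.00 ± 0.21 for Odc1 (adjusted p = 0.999), 0.13 ± 0.10 for Azin1 (adjusted p = 0.679), 0.14 ± 0.14 for Sat1 (adjusted p = 0.788) and -0.22 ± 0.15 for Srm. In this limma test 0 of the 3 genes other than Srm passed, and 0 had an unadjusted p under 0.05, where 1.63% of all genes were higher and 2.03% lower.

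**Figure D3:**
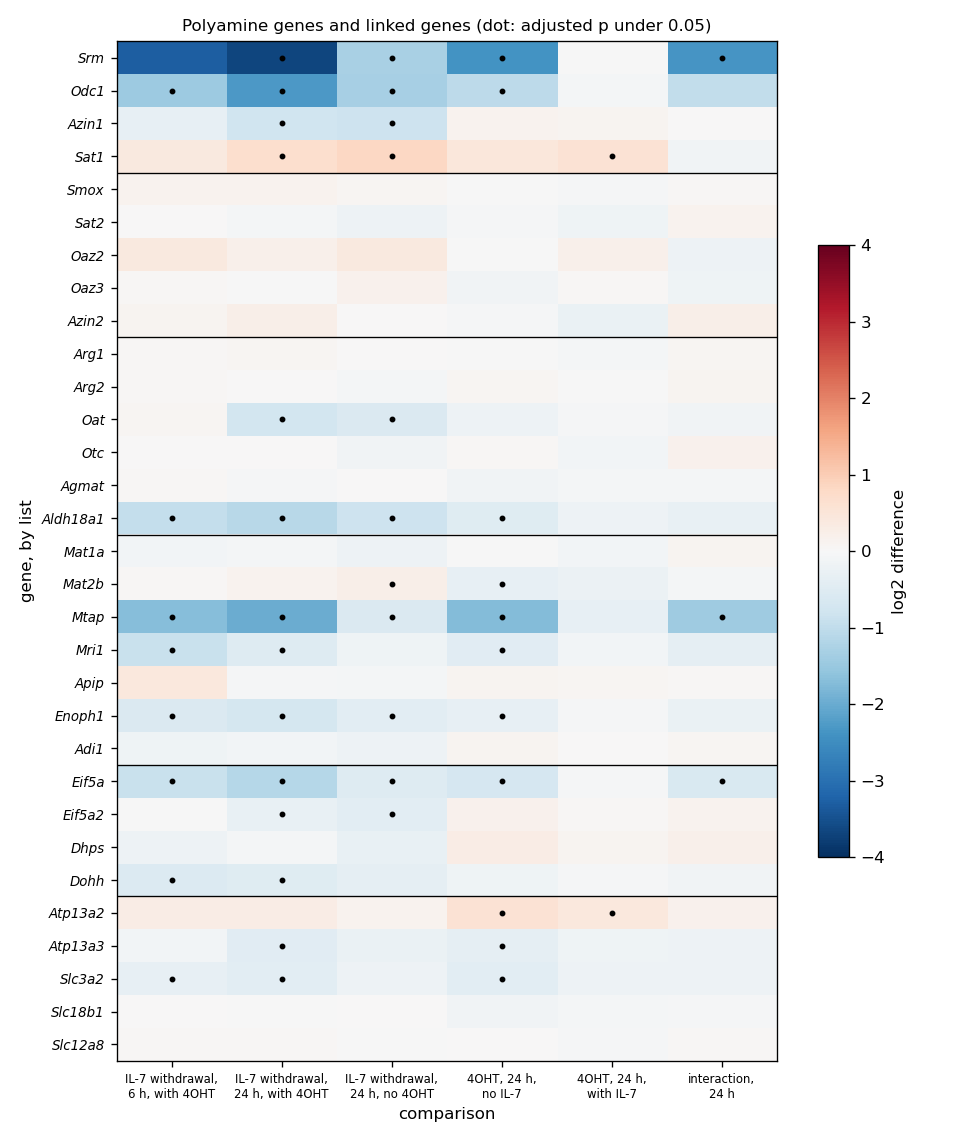
Log2 difference (colour, blue lower and red higher after IL-7 withdrawal or with 4OHT) of the 4 measured polyamine genes and 27 linked genes in 6 comparisons, with a dot where the limma adjusted p was under 0.05; lines part the lists, and Srm at 6 h carries no dot because it was chosen on that value. Mtap, Eif5a and Aldh18a1 fell with Srm and Odc1 in the 3 IL-7 withdrawal columns.

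Genes linked to the pathway were followed through 5 lists, of which 27 genes were measured. After IL-7 withdrawal for 24 h under 4OHT 10 of the 27 fell and 0 rose, with a median difference of -0.06 (0.06 over all genes). Of all genes 11.5% fell and 12.8% rose. As higher, 2 of the 27 had an unadjusted p under 0.05, and 2 passed with the replicate block, Azin2 and Atp13a2. Mtap, which clears the methylthioadenosine that spermidine synthase releases, fell by 1.98 ± 0.13 (adjusted p = 1.27e-06). It was at 7.85 and 7.58 without IL-7 and with 4OHT, against 9.70 and 9.70 with both, so the groups are far apart. Eif5a, the translation factor that carries hypusine, an amino acid made from spermidine, fell by 1.13 ± 0.09 (adjusted p = 3.14e-06). Aldh18a1, which opens the route from glutamate towards ornithine and proline, fell by 1.12 ± 0.10 (adjusted p = 1.09e-05), and Oat, the ornithine aminotransferase, fell by 0.73 ± 0.12 (adjusted p = 0.000948).

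Without 4OHT 6 of 27 fell and 1 rose at 24 h, with a median of -0.16 (-0.01 over all genes), where 8.78% of all genes fell and 11.2% rose. With the replicate block 11 fell and 2 rose, and 5499 of all genes passed, against 3982 without the block. Aldh18a1 fell by 0.82 ± 0.10 (adjusted p = 0.000178), Oat by 0.59 ± 0.12 (adjusted p = 0.0047), Mtap by 0.56 ± 0.13 (adjusted p = 0.00976) and Eif5a by 0.51 ± 0.09 (adjusted p = 0.0015). Mat2b, a subunit of methionine adenosyltransferase, was the 1 that rose, by 0.24 ± 0.08 (adjusted p = 0.0473). At 6 h under 4OHT 7 of 27 fell after IL-7 withdrawal and 0 rose in limma, where 3 rose at an unadjusted p under 0.05 and 3 with the replicate block. Of all genes 7.48% fell and 6.78% rose. Mtap fell by 1.69 ± 0.13 (adjusted p = 5.32e-06), and Mri1, an enzyme of the methylthioadenosine salvage route, fell by 0.88 ± 0.07 (adjusted p = 3.38e-06). Aldh18a1 fell by 0.94 ± 0.10 (adjusted p = 6.79e-05) and Eif5a by 0.88 ± 0.09 (adjusted p = 3.49e-05).

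For 4OHT at 24 h without IL-7, 8 of the 27 linked genes fell and 1 rose (2 rose with the replicate block), with a median of -0.04 (0.01 over all genes), where 8.17% of all genes fell and 7.10% rose. Mtap fell by 1.75 ± 0.13 (adjusted p = 2.78e-06), Eif5a by 0.66 ± 0.09 (adjusted p = 0.000238) and Aldh18a1 by 0.49 ± 0.10 (adjusted p = 0.00604). Atp13a2, a lysosomal exporter of polyamines, rose by 0.58 ± 0.12 (adjusted p = 0.00441). With IL-7, Atp13a2 was the 1 gene that passed, higher by 0.42 ± 0.12 (adjusted p = 0.0443), and 0 fell in limma, 4 at an unadjusted p under 0.05 and 3 with the replicate block. Of all genes 5.22% rose and 3.94% fell there. Mtap and Eif5a were the 2 that passed the interaction, at -1.42 ± 0.19 (adjusted p = 0.00528) and -0.62 ± 0.12 (adjusted p = 0.0466), both lower, as were 0.617% of all genes. Against the cells with IL-7 and no 4OHT, the cells without IL-7 and with 4OHT had 9 of the 27 lower and 1, Atp13a2, higher by 0.72 ± 0.12 (adjusted p = 0.000351), and 10 lower and 2 higher with the replicate block. Of all genes 15.4% were lower and 18.1% higher. Mtap differed there by -2.31 ± 0.13 (adjusted p = 1.41e-07), Aldh18a1 by -1.31 ± 0.10 (adjusted p = 1.13e-06), Eif5a by -1.17 ± 0.09 (adjusted p = 8.56e-07) and Oat by -0.78 ± 0.12 (adjusted p = 0.000263).

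Of the 5 other measured genes of polyamine synthesis, breakdown and regulation, Smox, Sat2, Oaz2, Oaz3 and Azin2, 0 passed in limma for either 24 h comparison of IL-7 withdrawal, and 1 had an unadjusted p under 0.05 in each. With the replicate block 1 passed in each. Without 4OHT it was Oaz2, an antizyme gene, at 0.40 (adjusted p = 0.0757, 0.0187 with the replicate block). Under 4OHT it was Azin2, a second antizyme inhibitor gene, at 0.24 (adjusted p = 0.134, 0.0308 with the replicate block). Azin2 had group means of 6.75 to 7.09, below the median of all values of 7.51, and Smox had group means of 7.36 to 7.69, around it. Further calls with the block were Oaz2 for IL-7 withdrawal at 6 h, at 0.40 (adjusted p = 0.103, 0.0262 with the block), and for 24 h without IL-7 and with 4OHT against IL-7 alone, at 0.40 (adjusted p = 0.0512, 0.0128 with the block). Azin2 passed with the block for 4OHT with IL-7, at -0.27 (adjusted p = 0.157, 0.0334 with the block). In the 14 comparisons the 1 pass in that list without the block was Smox, the spermine oxidase gene, which rose by 0.31 ± 0.08 (adjusted p = 0.0275) after 6 h without IL-7 and with 4OHT against time 0. In the same comparison 9 of the 27 linked genes fell and 3 rose, where 7.53% of all genes fell and 5.57% rose. There Mtap fell by 1.60 ± 0.13 (adjusted p = 1.59e-05), Aldh18a1 by 1.02 ± 0.10 (adjusted p = 5.48e-05) and Eif5a by 0.59 ± 0.09 (adjusted p = 0.000896), while Atp13a2 rose by 0.53 ± 0.12 (adjusted p = 0.00982) and Eif5a2, a relative of Eif5a, by 0.31 ± 0.09 (adjusted p = 0.0416). The other comparisons with time 0 held fewer calls. After 6 h with IL-7 and 4OHT 2 rose and 1 fell, 3 and 3 with the replicate block, where 3.92% of all genes rose and 4.85% fell: Mri1 rose by 0.50 ± 0.07 (adjusted p = 0.000408) and Eif5a2 by 0.32 ± 0.09 (adjusted p = 0.049), while Mat2b fell by 0.34 ± 0.08 (adjusted p = 0.0151). After 24 h without IL-7 or 4OHT 1 fell, Aldh18a1, by 0.70 ± 0.10 (adjusted p = 0.00138), where 4.09% of all genes fell. With the replicate block 7 fell, and 2339 of all genes passed, against 1099 without the block. After 24 h with IL-7 and no 4OHT 0 of 27 passed in limma, while 5 had an unadjusted p under 0.05 as higher and 1 as lower, and 1 rose with the replicate block, where 0.737% of all genes rose and 2.36% fell. Between 6 h and 24 h of 4OHT, 5 of 27 fell in cells without IL-7, while 0 rose, at an adjusted or an unadjusted p under 0.05. With the replicate block 6 fell, and 3727 of all genes passed, against 2377 without the block. Without the block 6.81% of all genes fell and 5.11% rose. Oat fell there by 0.43 ± 0.12 (adjusted p = 0.0421), Eif5a2 by 0.42 ± 0.09 (adjusted p = 0.0095), Atp13a3, a relative of Atp13a2, by 0.34 ± 0.09 (adjusted p = 0.0272) and Eif5a by 0.33 ± 0.09 (adjusted p = 0.0304). In cells with IL-7 the 1 that fell was Mri1, by 0.51 ± 0.07 (adjusted p = 0.00136), where 2.03% of all genes fell and 1.63% rose, and 1 fell and 2 rose with the replicate block. The effect of IL-7 withdrawal at 24 h minus that at 6 h passed for Oat, at -0.79 ± 0.17 (adjusted p = 0.0198), and for Mri1, at 0.36 ± 0.09 (adjusted p = 0.0432), where 3.65% of all genes were lower and 1.36% higher, and 3 of the 27 were lower and 1 higher with the replicate block.

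Myc, whose product drives Odc1 transcription in growing cells, ran beside Srm and Odc1, and less closely beside Azin1. At time 0 it was at 12.55 and 12.49. After 6 h under 4OHT it was at 11.31 and 10.92 without IL-7, against 13.30 and 13.18 with IL-7. After 24 h it was at 9.31 and 9.43 without IL-7 and with 4OHT, against 12.10 and 12.05 without either. With IL-7 at 24 h it was at 12.63 and 12.66 with 4OHT, against 12.88 and 12.86 without it. Its 7 group means took the same order as those of Srm, from 13.24 down to 9.37. At 24 h, Myc fell by 2.70 ± 0.11 with 4OHT in cells without IL-7 (adjusted p = 1.7e-08), and in cells with IL-7 it differed by -0.23 ± 0.11 (adjusted p = 0.221). The interaction was -2.47 ± 0.15 (adjusted p = 3.05e-05). After IL-7 withdrawal for 24 h Myc fell by 3.27 ± 0.11 under 4OHT (adjusted p = 2.18e-08), and by 0.80 ± 0.11 without 4OHT (adjusted p = 0.000258).

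**Figure D4:**
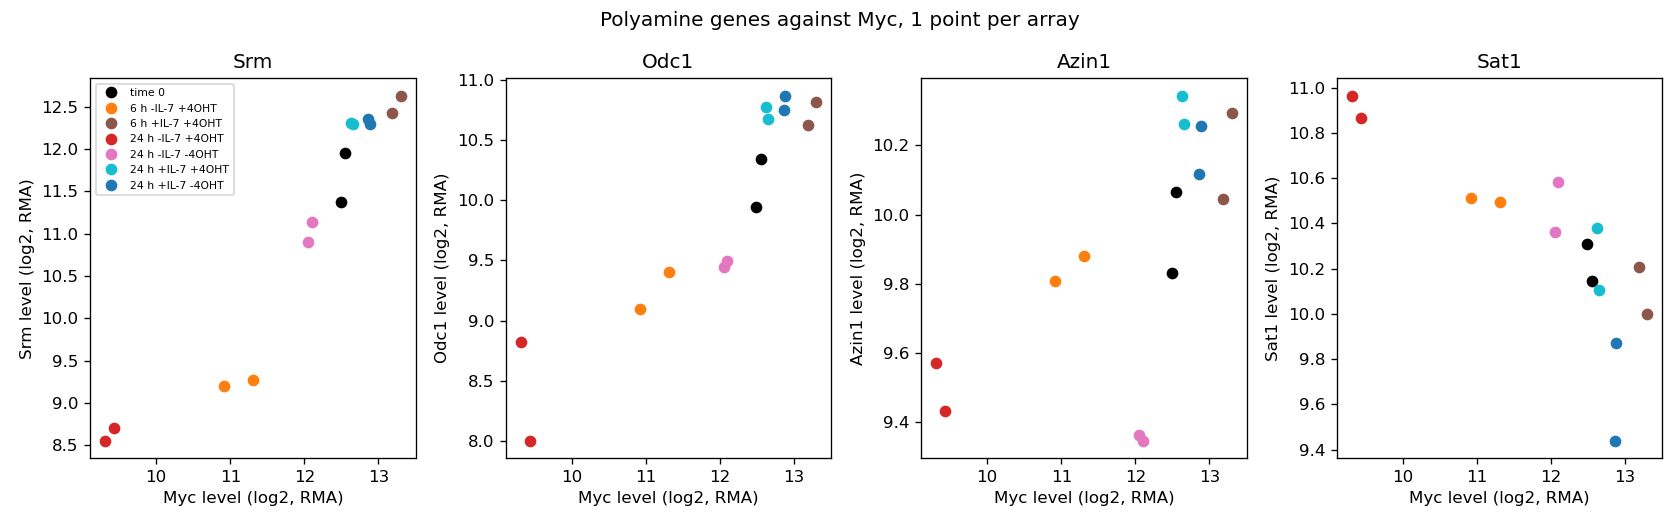
Level of each measured polyamine gene against the level of Myc (both log2, RMA), 1 point per array and 14 points per panel, coloured by group. Srm and Odc1 rise with Myc (Pearson r of 0.95 and 0.92), Sat1 runs against it (-0.81), and for Azin1 (0.65) the cells without IL-7 or 4OHT for 24 h lie far below arrays of like Myc level.

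Over the 14 arrays, which stand for 7 conditions and share 1 normalization, the Pearson correlation with Myc was 0.95 for Srm, 0.92 for Odc1, 0.65 for Azin1 and -0.81 for Sat1. Spearman's rho was 0.98, 0.93, 0.75 and -0.87 in the same order. Leaving out the 2 arrays farthest from the median Myc level gave 0.97 for Srm, 0.90 for Odc1, 0.55 for Azin1 and -0.64 for Sat1. Srm and Odc1 correlated with each other at 0.94, Odc1 and Azin1 at 0.85, and Srm and Azin1 at 0.69. Mycn, a relative of Myc, had a group mean of 8.40 after 6 h with IL-7 and 4OHT. In the other groups it lay at 6.86 to 7.34, below the median of all values of 7.51. Mycn correlated with both Srm and Odc1 at a Pearson r of 0.59. Spearman's rho was 0.78 for Srm and 0.74 for Odc1, and r was 0.72 and 0.82 in that order without the 2 arrays farthest from the median Mycn level. In the list of 12 MYC and MAX network genes, cells without IL-7 and with 4OHT had 4 genes lower and 6 higher than cells with IL-7 and no 4OHT, where 15.4% of all genes were lower and 18.1% higher. Myc differed by -3.50 ± 0.11 (adjusted p = 4.69e-09). The largest rise in the list was that of Mlxip, with a mean of 11.41 in the former cells against 9.98 in the latter. Mxd1 and Mxd4, which pair with MAX in place of MYC, rose by 1.29 ± 0.08 (adjusted p = 3.21e-07) and 0.84 ± 0.09 (adjusted p = 1.58e-05). Mxd3 of the same family fell by 0.71 ± 0.14 (adjusted p = 0.00131).

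The genes whose levels were most like each member over the 14 arrays were sought among 1606 genes above the median level with group means that spanned at least 1. For Srm they were Dctd (Pearson r of 0.998), Polr1b (0.994), Atic (0.993), Rrp1b (0.991) and Gart (0.989). Atic and Gart are enzymes of purine synthesis, and Polr1b belongs to the polymerase that transcribes ribosomal RNA. For Odc1 they were Nme2, Nudcd2, Erh, Snrpa1 and Polr3g, at 0.984 to 0.986. For Azin1 they were Psat1 (0.972), an enzyme of serine synthesis, Wee1, Ddias, Anapc15 and Ttf2, down to 0.969. For Sat1 they were Trip4 (0.980), Senp7, Arhgap18, Abhd18 and Ppp3ca, down to 0.966. With 1606 candidates and 7 conditions, high values of r at the top of such a list come with the search itself, and they are given as a description.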

How the data were processed

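RNA of 14 cultures (150 ng each, per the labels' protocols) was hybridised to 1-colour Affymetrix arrays. The authors deposited log2 values made with Affymetrix Expression Console 1.1 and RMA, per the submitters' processing notes. RMA corrects background and makes the arrays' distributions more alike, so a shift of all genes together can be lost. The medians of the deposited arrays over all probe sets still ran from 7.23 to 7.43. They were higher in experiment 2 than in experiment 1 in every group. The number of arrays limits the precision: the median SE of a difference over all genes was 0.0912 on the log2 scale.

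Of 35556 probe sets, 21789 carried 1 symbol, 1621 several, and 12146 were not listed. The brightest probe set, by its mean over 14 arrays, stood for each of 19938 genes. limma 3.58.1 in R 4.3.3 fitted 1 mean per group (7 residual degrees of freedom and 4.83 from the prior). The 14 comparisons were tested at 0.05 after Benjamini-Hochberg adjustment over all genes, and the procedure was tested on simulated data. The labels name 2 independent experiments, and in 21 of 21 pairs of groups arrays of the same experiment deviated together (r of 0.124 to 0.631), so the experiment number pairs the arrays. The labels do not say whether the experiments used separately grown cultures, so p-values measure the spread between these samples.

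The members and gene lists were chosen with earlier results of these data known. The named genes are the members, Myc, Mycn, and 5 most alike genes per member. Up to 4 genes with the largest difference per comparison are named from the linked lists and from the MYC list, and Mxd3 is named beside Mxd1 and Mxd4. Alternatives were the replicate block, a further quantile normalization, leaving out dim genes, the mean of a gene's probe sets, a variance trend, and leaving out each array. Linked genes without a probe set of 1 symbol (Amd1, Amd2, Paox, Oaz1, Mat2a and Ahcy) were not analysed here. Ikzf1 and Bcl2 were at 13.02 to 13.38 and 8.28 to 8.56, which checks no label, as the transcript read is not known.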

Additional observations from a re-analysis of the deposited data

Results flagged for a closer look

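The effect of IL-7 withdrawal on Srm differed between cells with 4OHT and cells without it at 24 h. Its interaction was -2.37 ± 0.22 on the log2 scale (limma adjusted p = 0.000581): IL-7 withdrawal changed Srm by -3.67 under 4OHT and by -1.31 without 4OHT. It had the same sign in both experiments, at -2.60 and -2.13, and lay between -2.49 and -2.24 over the 19 alternatives. Myc had an interaction of -2.47 ± 0.15 in the same direction, and the part of Myc in the Srm result was not tested.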

How the results depend on the processing

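Leaving aside the 6 results of Srm that involve 6 h arrays, 23 of 50 results passed, and 16 of these kept their call and direction in all 19 alternatives. These include all 12 for withdrawal of IL-7 at 24 h, under 4OHT or not, and for both against neither. With the replicate block 11 further results passed and 0 were lost: the number of genes passing became 2, against 1 without the block, for 6 h with IL-7 and 4OHT against time 0, 4 against 2 for IL-7 withdrawal at 6 h (4 also after a further quantile normalization), 3 against 1 for 24 h with IL-7 and no 4OHT against time 0 (2 without dim genes and 2 with a variance trend), 2 against 1 for the interaction and 2 against 0 for IL-7 withdrawal at 24 h minus that at 6 h. Srm is 1 of the genes in each count with 6 h arrays except the 24 h minus 6 h effect, and nothing is read from it: without Srm the block gave 1 against 0 for 6 h with IL-7 and 4OHT against time 0 and 3 against 1 for IL-7 withdrawal at 6 h. The other 3 gains were Odc1 for 24 h without either against time 0, and Sat1 for 4OHT without IL-7 and for 24 h against 6 h without IL-7. Leaving out 1 array gave 1 to 2 passing genes for 6 h with IL-7 and 4OHT against time 0, 1 to 2 for 6 h without IL-7 against time 0, 0 to 2 for 24 h with IL-7 and no 4OHT against time 0, 0 to 3 for 24 h without either against time 0, 0 to 1 for 4OHT with IL-7, 1 to 2 for the interaction, 0 to 1 for the 24 h minus 6 h effect and 0 to 3 for 24 h against 6 h without IL-7. Without Srm the 6 h comparisons gave 0 to 1, 0 to 1, 0 to 1 for the 24 h minus 6 h effect and 0 to 2 for 24 h against 6 h without IL-7. The cause was not tested. Signs turned only in results that did not pass: with 1 array left out, Azin1 after 6 h without IL-7 against time 0 ranged from -0.220 to 0.0128, Srm for 4OHT with IL-7 from -0.0564 to 0.00486, the interaction from -0.0394 to 0.0999 for Azin1 and from -0.362 to 0.0716 for Sat1, and Odc1 for 24 h against 6 h with IL-7 from -0.0935 to 0.0978 (-0.0321 after a further quantile normalization and -0.0533 for the mean of its probe sets).

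Over all genes the block raised the number passing to 2999, against 1748, for 6 h with IL-7 and 4OHT against time 0, to 3994, against 2611, for 6 h without IL-7 against time 0, to 2056, against 617, and 2339, against 1099, for 24 h with IL-7 alone and without either against time 0, to 3324, against 1826, for 4OHT with IL-7, to 449, against 137, for the interaction, to 1972, against 998, for the 24 h minus 6 h effect, and to 1819, against 729, and 3727, against 2377, for 24 h against 6 h with and without IL-7. The block also raised the number to 4243, against 2844, for IL-7 withdrawal at 6 h and to 4470, against 3045, for 4OHT without IL-7. For IL-7 withdrawal at 24 h it gave 5499, against 3982, without 4OHT and 6570, against 4846, under it. For both against neither it gave 7850, against 6690. Leaving out the 1 array with the largest effect in a comparison lowered the count without the block by more than 1.5 times in most comparisons. In each comparison some other array could be left out with a count near or above that of all arrays. The lowest were 39 for 24 h with IL-7 alone against time 0 (without its own experiment 2 array; 79 without that of time 0), 50 for the interaction (without that same array), 207 for 24 h against 6 h with IL-7 (without the experiment 1 array of 24 h with both), and 419 and 1388 for 24 h without either and 6 h without IL-7 against time 0 (without the experiment 1 array of time 0). They were 1067 for 6 h with IL-7 and 4OHT against time 0, 1490 for IL-7 withdrawal at 6 h, 847 and 1841 for 4OHT with and without IL-7, 591 for the 24 h minus 6 h effect, 1315 for 24 h against 6 h without IL-7, and, for IL-7 withdrawal at 24 h, 2279, against 3982, without 4OHT and 3257, against 4846, under it.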
